A study of Mus musculus with 6 samples.

Results

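Genes of the lysosome were compared between BV2 cells, a mouse microglial cell line, with and without overexpression of PGC-1α, a transcriptional coactivator. The gene group comprised 62 genes in 4 classes, namely 3 transcription factors (Tfeb, Tfe3 and Mitf), 5 lysosomal membrane proteins, 26 lysosomal enzymes with their cofactors, and 28 genes of the vacuolar H+-ATPase (V-ATPase). Of these, 34 were chosen by name and 28 because their RefSeq symbol begins with Atp6v0, Atp6v1 or Atp6ap. The arrays carried probes for 23462 genes in all. Single-colour Agilent arrays were hybridised with RNA of 3 samples of BV2 cells without PGC-1α overexpression (control) and 3 samples of BV2 cells overexpressing PGC-1α (overexpression). All 6 samples came from cells treated with LPS, the bacterial lipopolysaccharide that activates microglia, so unstimulated cells were not part of the comparison. The labels give neither a dose nor a duration of LPS, and the study's methods state both for BV2 cells without naming these arrays. In the study's methods, PGC-1α was delivered to the line by a lentiviral vector behind a ubiquitin promoter, and infected cells were selected with puromycin. The methods also describe a negative control virus, but the labels do not say whether the control cells of these arrays carried it. Nothing in the labels says that the samples of a group were separate cultures, so the p-values below measure the spread between these arrays, which may be technical.

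Lysosomes degrade material delivered by endocytosis, phagocytosis and autophagy with acid hydrolases, most of which reach the organelle through mannose 6-phosphate receptors. The V-ATPase keeps the lumen acidic: its cytosolic V1 sector hydrolyses ATP, and its membrane-bound V0 sector passes protons. TFEB, TFE3 and MITF are related basic helix-loop-helix factors that bind an E-box motif in the promoters of many of these genes, and microglia rely on lysosomes to digest what they engulf. The comparison addressed which genes of this machinery differed in RNA level when PGC-1α was overexpressed in LPS-treated BV2 cells.

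Each value is the log2 intensity of a probe relative to the 75th percentile of all probes on the same array, and a log2 fold change is the overexpression mean minus the control mean with its standard error (SE). A gene is represented by its brightest tested probe. Genes with an adjusted p below 0.05 in limma, with Benjamini-Hochberg adjustment over all 17063 genes tested, are described as having risen or fallen. Among all genes tested, 36.9% were called higher and 19.6% lower in the overexpression cells, and the log2 fold change had a median of 0.23. After quantile normalization, which gives every array the same distribution, 23.1% were called higher and 22.3% lower, with a median of 0.03. The raw intensity at the 75th percentile ranged from 1617 to 1893 over the control arrays and from 856 to 1268 over the overexpression arrays. No spot was saturated. Since the choice of scaling moved so many calls, the calls are given under both scalings. In bulk RNA, fewer cells expressing a gene and less RNA per cell cannot be told apart.

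The labels were checked against named genes. The 2 probes of Ppargc1a, which encodes PGC-1α, were not well above background on all 3 arrays of either group. One gave −6.84, −6.33 and −7.10 in the control samples and −6.996, −6.11 and −6.40 in the overexpression samples, and these ranges overlapped. The other gave −6.21, −6.37 and −7.71 in the control samples and −5.70, −5.28 and −5.90 in the overexpression samples, with the overexpression samples the higher. Whether either probe lies within the sequence that the vector carries is not given in the sources used here, so neither checks the overexpression. Of 10 microglia and macrophage markers, 8 were well above background on all 6 arrays, but Cx3cr1 and P2ry12, 2 defining microglial receptors, were above it on none. Only those 8 could be tested, and of these 4 rose and 1 fell with 75th percentile scaling, and none rose and 1 fell after quantile normalization. The gene that fell was Tmem119, a marker of resident microglia, with a log2 fold change of −2.68 (adjusted p = 4.4e-05 in limma) and −2.71 after quantile normalization. Of 20 markers of astrocytes, neurons, oligodendrocytes, fibroblasts and lymphocytes, 15 were also well above background on all 6 arrays, with group means between −5.25 and 5.35, and 2 (Syt1 and Ms4a1) were above it on no array. Of these 20, 16 could be tested. Of the 16, 9 rose and 1 fell in the overexpression cells with 75th percentile scaling, against 36.9% and 19.6% of all genes. After quantile normalization 6 rose and 1 fell, against 23.1% and 22.3% of all genes. The part of either set of markers in the results below was not tested.

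Of the 62 genes, 52 could be tested. The spots of Tpp1, Gusb, Atp6v1c1 and Atp6v0e carried outlier flags on too many arrays. Atp6v1c2, Atp6v1fnb, Atp6v1g3 and Atp6v0a4 were not well above background, and the pseudogenes Atp6v0c-ps1 and Atp6v0c-ps2 had no matched probe. With 75th percentile scaling, 26 of the 52 rose and 4 fell, against 36.9% and 19.6% of all genes, so that the share called higher was above that of all genes and the share called lower (7.69%) below it. With quantile normalization 6 rose and 7 fell, and both shares were below the 23.1% and 22.3% of all genes. The 10 genes called in the same direction both times were Ctsk, Gla, Atp6v1b1, Atp6v1g2, Atp6v0e2 and Atp6ap1l, which rose, and Mitf, Naglu, Ppt1 and Atp6v0a2, which fell. Of all 17063 genes tested, 3922 were called higher and 3248 lower both times. The 6 and 4 of the 52 genes are thus smaller shares than those of all genes. The control and overexpression samples did not overlap for 38 of the 52, against 65.5% of all genes tested. All 29 genes that were called at 75th percentile scaling and had values on both slides moved in the same direction on each slide. These genes were chosen by a call on the same arrays, so the agreement is not a separate test of the calls.

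**Figure D1:**
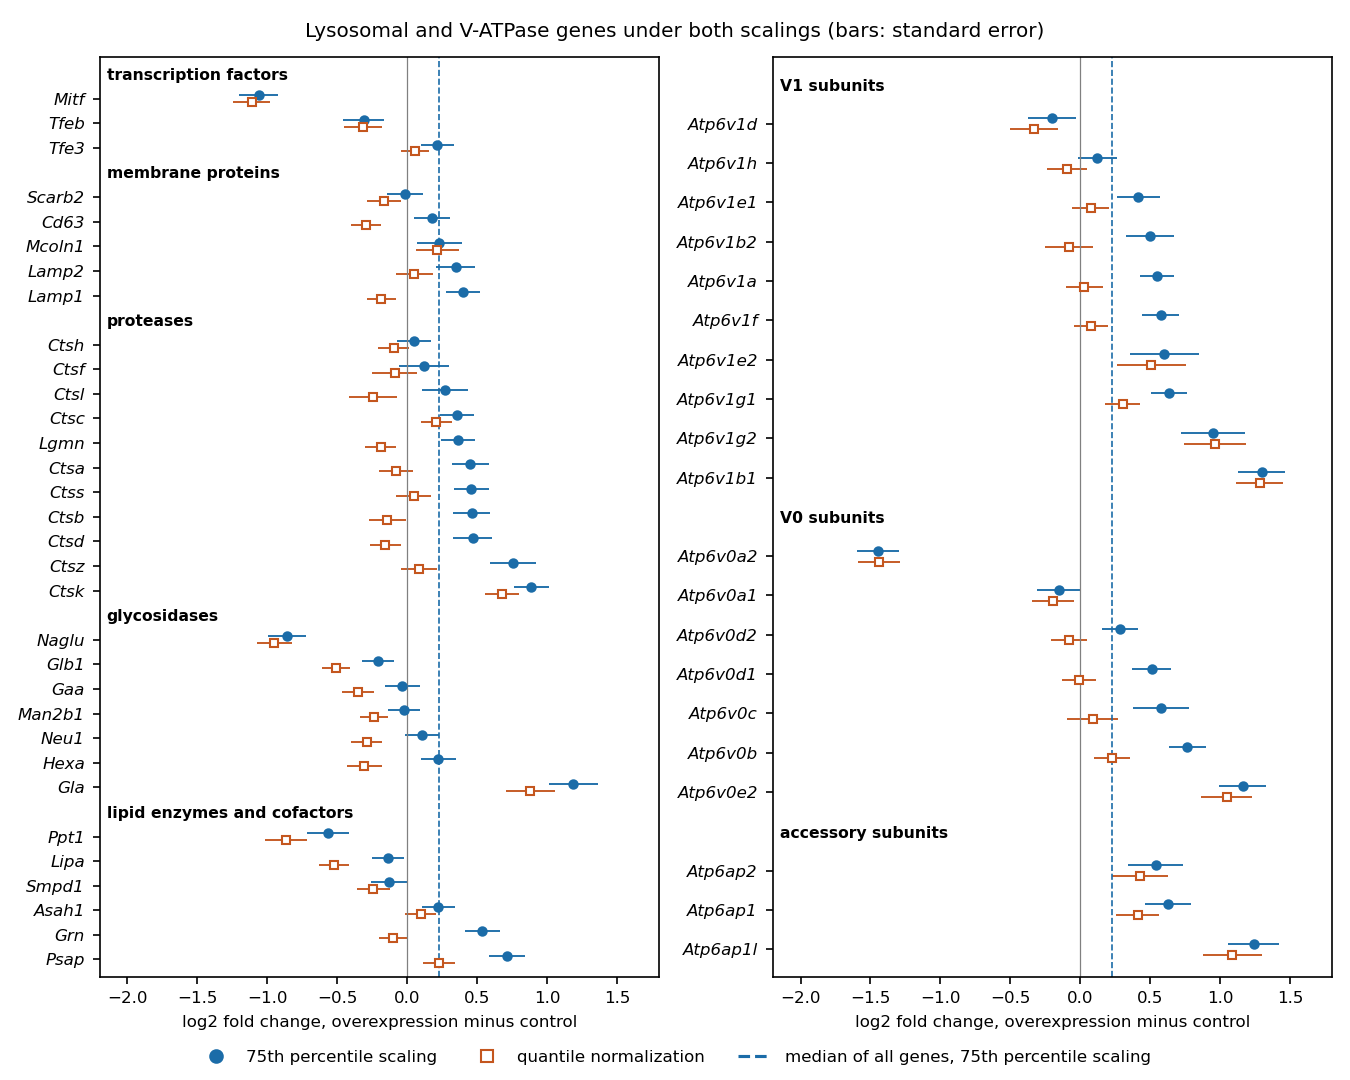
Log2 fold change (horizontal axis, overexpression minus control) of the 52 tested genes, grouped by role, with 75th percentile scaling (filled circles) and quantile normalization (open squares). Bars are the SE, and the dashed line marks the median of all genes with 75th percentile scaling, 0.23. Most of the proteases and V-ATPase subunits lie to the right of zero under the first scaling and near zero under the second, while the 10 genes called both times stay on their side.

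The difference between the scalings varied with the level of the gene. Quantile normalization changed the log2 fold change of the 52 genes by between −0.67 (Ctsz) and 0.01 (Atp6v1g2), and this shift and the mean level of the gene had a Pearson's r of −0.85 across the 52 genes, which share the same 6 arrays. Over all genes, the shift was largest for the highest levels, smallest in the middle and negative again for the lowest. The 553 genes with a mean level of 4 or more above the 75th percentile had a median log2 fold change of 0.60 with 75th percentile scaling and of −0.02 after quantile normalization. For the 3778 genes with levels from −2 to 0 the medians were −0.12 and −0.10. For the 3039 genes from −4 to −2 they were 0.28 and 0.19, and for the 3501 genes below −4 they were 0.56 and 0.36, so genes at the levels of Atp6v0e2 and Atp6ap1l had medians above zero under both scalings. Grn, Ctsz and Ctsd, which had mean levels above 4, were called with the first scaling and had log2 fold changes of −0.10, 0.08 and −0.16 with the second.

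**Figure D2:**
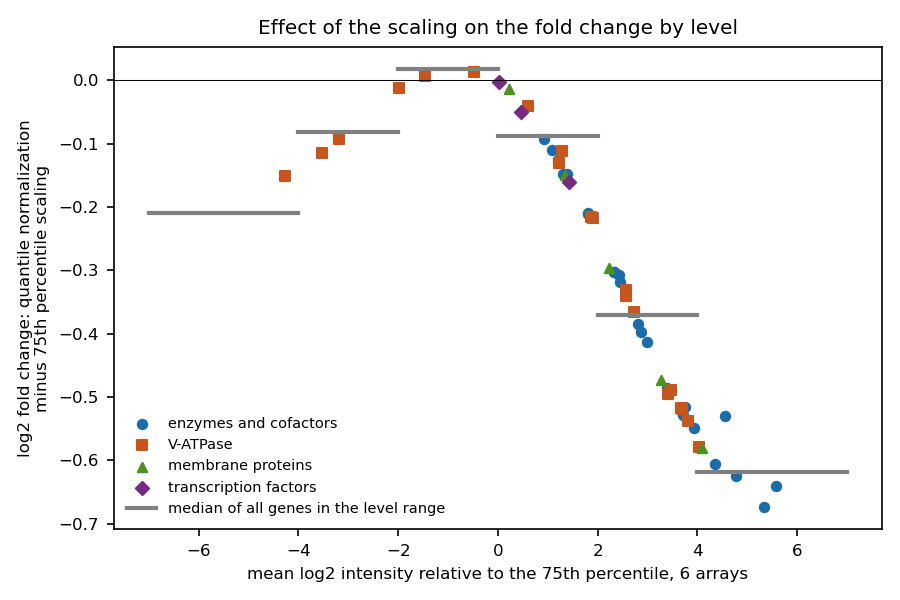
Change in the log2 fold change when 75th percentile scaling is replaced by quantile normalization (vertical axis) against the mean log2 intensity of the gene over the 6 arrays, relative to the 75th percentile (horizontal axis), for the 52 tested genes by class. Grey bars are the medians of all genes in a level range. The shift is near 0 for levels around 0 and reaches −0.67 for Ctsz.

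Of the 3 transcription factor genes, 1 fell (33.3%) and none rose under either scaling. Among all genes, 19.6% fell and 36.9% rose with 75th percentile scaling, and 22.3% and 23.1% with quantile normalization. The gene that fell was Mitf. Its brightest probe gave 0.87, 1.09 and 1.01 in the control samples and 0.06, −0.27 and −0.01 in the overexpression samples, a log2 fold change of −1.06 (SE 0.14, adjusted p = 0.0008 in limma). Every control value lay above every overexpression value, and the change was −1.11 after quantile normalization. However, the other 2 probes of Mitf, which are dimmer, had log2 fold changes of 0.09 and 0.29 and neither passed the test, and with the mean of the probes the log2 fold change of Mitf was −0.23 (adjusted p = 0.28 in limma). The fall of Mitf therefore rests on 1 of its 3 probes. Tfeb, the factor best known for driving lysosomal genes, gave 0.32 and 0.10 in 2 control samples and −0.04, −0.07 and −0.20 in the overexpression samples. The spot of control replicate 2 was flagged and left out. The log2 fold change of Tfeb was −0.31 (SE 0.15, adjusted p = 0.11 in limma), and its other 2 probes gave −0.23 and −0.16. All 3 probes of Tfeb thus had lower means in the overexpression cells without passing the test. Tfe3 gave 1.35, 1.32 and 1.28 in the control samples and 1.54, 1.63 and 1.42 in the overexpression samples. Its groups did not overlap, but its log2 fold change of 0.21 (SE 0.12) had an adjusted p of 0.15 in limma, was 0.05 after quantile normalization, and was −0.28 at its dimmer probe.

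The E-box that these factors bind was searched on both strands in RefSeq promoters of the mouse assembly GRCm38.p6, from 250 bases before to 50 bases after each transcription start. A promoter was listed for 50 of the 62 genes, 61 promoters in all. CACGTG, which reads the same on both strands, was found in 24.6% of the promoters of the gene group (15 of 61) and in 7.15% of all 32851 promoters. Its longer form TCACGTG, contained in the count of the first, was found in 21.3% (13 of 61) against 3.77% of all promoters. AAGGTCA, the half-site of estrogen-related receptors, which PGC-1α coactivates, was found in 4.92% (3 of 61, those of Ctsa, Mitf and Psap) against 4.72%. Stretches of 30 bases around the match are shown for 6 genes that were called higher with 75th percentile scaling and for Glb1 and Mcoln1, which were not. They are shown for the bases that flank CACGTG, since the match itself was fixed by the search. Capitals mark CACGTG with those flanking bases that extend it towards GT on its left and AC on its right.
Lamp1 (chr8:13159088-13159117, + strand): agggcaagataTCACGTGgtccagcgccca
Ctsa (chr2:164833749-164833778, + strand): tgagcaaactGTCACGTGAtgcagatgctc
Ctsd (chr7:142387908-142387937, − strand): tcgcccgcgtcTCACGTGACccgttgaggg
Lgmn (chr12:102439124-102439153, − strand): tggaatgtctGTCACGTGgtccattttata
Atp6v1a (chr16:44139373-44139402, − strand): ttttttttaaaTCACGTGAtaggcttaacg
Atp6v0b (chr4:117887348-117887377, − strand): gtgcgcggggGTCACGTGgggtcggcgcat
Glb1 (chr9:114401018-114401047, + strand): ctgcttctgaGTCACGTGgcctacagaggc
Mcoln1 (chr8:3500436-3500465, + strand): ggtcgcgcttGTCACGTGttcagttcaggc
Of the 13 genes with TCACGTG in a promoter, 12 were tested, and 8 rose and 1 fell with 75th percentile scaling (median log2 fold change 0.42). With quantile normalization, 1 rose and 3 fell (median −0.12). Of the 37 genes with a listed promoter and no such motif, 31 were tested, and 14 rose and 2 fell with the first scaling (median 0.35), against 4 and 3 with the second (median 0.05). Among all genes tested, 36.9% were called higher and 19.6% lower with the first scaling (median 0.23). With the second, 23.1% were called higher and 22.3% lower (median 0.03). A match of letters is a description of the window and not evidence of binding.

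Of the 5 membrane protein genes, 1 rose with 75th percentile scaling and none was called after quantile normalization. Lamp1, a heavily glycosylated protein of the lysosomal membrane, gave 3.95, 3.87 and 3.86 in the control samples and 4.18, 4.42 and 4.27 in the overexpression samples. The groups did not overlap, and the log2 fold change was 0.40 (SE 0.12, adjusted p = 0.025 in limma) with 75th percentile scaling but −0.18 (adjusted p = 0.19 in limma) after quantile normalization. The call of Lamp1 was also lost when any of the 3 control arrays was left out (adjusted p between 0.051 and 0.078 in limma). Lamp2, which with Lamp1 lines the membrane and takes part in chaperone-mediated autophagy, had a log2 fold change of 0.35 (adjusted p = 0.067 in limma), Cd63, a tetraspanin, 0.18, Mcoln1, the lysosomal calcium channel, 0.23, and Scarb2, the receptor that carries glucocerebrosidase, −0.02. None of these 4 passed the test under either scaling.

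Of the 24 enzymes and cofactors tested, 11 rose and 2 fell with 75th percentile scaling, a share called higher of 45.8% against 36.9% of all genes, and their median log2 fold change was 0.02 above that of all genes. With quantile normalization, 2 rose (8.33%, against 23.1% of all genes) and 5 fell (20.8%, against 22.3%). The median then lay at −0.18 relative to that of all genes. The 11 calls of higher levels with 75th percentile scaling became 5 without control replicate 2 and 6 without control replicate 1 or without overexpression replicate 1. Part of each drop came from genes with a flagged spot, which could then not be tested. These were Ctsz without control replicate 2, Ctsb and Ctsz without control replicate 1, and Ctsa without overexpression replicate 1.

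Among 11 tested proteases, 8 rose with 75th percentile scaling (72.7%, against 36.9% of all genes) and none fell. After quantile normalization none fell and 1 rose, 9.09% against 23.1% of all genes. That gene was Ctsk, which encodes cathepsin K, a collagen-degrading cysteine protease best known from osteoclasts. Ctsk gave 1.31, 1.37 and 1.44 in the control samples and 2.33, 2.12 and 2.33 in the overexpression samples. The groups were well apart, with a log2 fold change of 0.89 (SE 0.12, adjusted p = 0.001 in limma), 1.85-fold. After quantile normalization the log2 fold change was 0.68 (SE 0.12, adjusted p = 0.0041 in limma), and on either slide it was 0.89. Ctsz, the carboxypeptidase cathepsin Z, gave 4.94 and 4.81 in 2 control samples and 5.49, 5.85 and 5.54 in the overexpression samples, and the spot of control replicate 3 was flagged. Its log2 fold change of 0.76 (SE 0.16, adjusted p = 0.0078 in limma) was 0.08 after quantile normalization. The other 6 protease genes called higher were Ctsa, Ctsb, Ctsc, Ctsd, Ctss and the asparaginyl endopeptidase gene Lgmn, with log2 fold changes from 0.36 to 0.47 that became −0.19 to 0.21 after quantile normalization. These calls were close to the threshold. The spots of Ctsa on overexpression replicate 2 and of Ctsb on control replicate 2 were flagged. Each of these 2 genes could therefore be tested in only 4 of the fits that left out 1 array. The call of Ctsa was lost without control replicate 1 (adjusted p = 0.064) or 2 (0.078), that of Ctsb without overexpression replicate 1 (0.063), that of Ctsd without control replicate 2 (0.070) or 3 (0.054), and that of Ctss without control replicate 2 (0.063) or overexpression replicate 1 (0.059), all in limma. The calls of Ctsc and Lgmn were lost without any 1 array other than overexpression replicate 2 for Ctsc and control replicate 3 for Lgmn, with adjusted p between 0.052 and 0.13 in limma. Ctsf, Ctsh and Ctsl had log2 fold changes of 0.12, 0.05 and 0.27 and did not pass the test.

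Probes of one gene did not always move together, and the genes shown for this, other than Mitf, were chosen after their values were seen. Ctsl encodes cathepsin L, a cysteine endopeptidase. Its bright probe gave 3.31, 3.67 and 3.85 in the control samples and 3.89, 3.76 and 3.99 in the overexpression samples, and the groups overlapped. Its dim probe, well above background on all 6 arrays, gave −1.88, −1.85 and −2.36 in the control samples and −3.28, −3.38 and −3.38 in the overexpression samples, a log2 fold change of −1.32 (SE 0.16). The 2 probes of Ctsl thus differed, 1 with overlapping groups and 1 lower in every overexpression sample. Of the 3 probes of Ctsc, which encodes dipeptidyl peptidase 1, the one used had a log2 fold change of 0.36 and the others −0.34 and 0.77. For Atp6v0a2 both probes fell, with log2 fold changes of −1.45 and −0.66, whereas for Atp6v1b2 the brighter probe gave 0.50 and the dimmer −0.04. All 3 probes of Ppt1 had lower means in the overexpression samples, with log2 fold changes between −0.42 and −0.56.

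**Figure D3:**
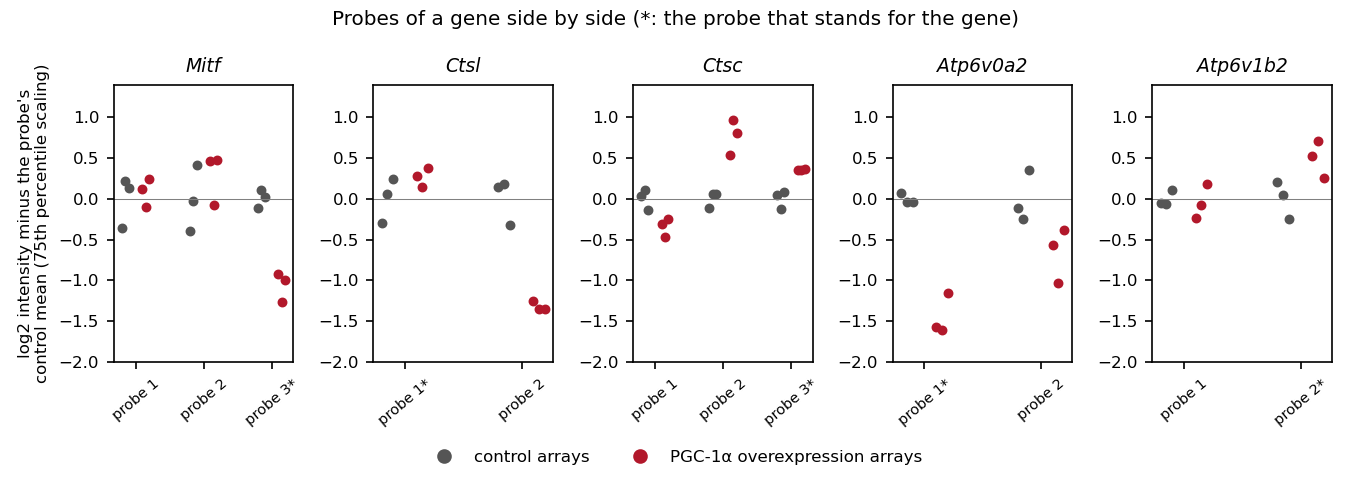
Log2 intensity of every array minus the control mean of the same probe (vertical axis), with 75th percentile scaling, for each tested probe of 5 genes. Grey points are control arrays and red points overexpression arrays, and an asterisk marks the probe that stands for the gene. Lower values without overlap in the overexpression samples are seen for 1 of 3 probes of Mitf, 1 of 2 of Ctsl, 1 of 3 of Ctsc and both of Atp6v0a2.

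Among the 7 tested glycosidases, which remove sugars from glycolipids, glycoproteins and glycosaminoglycans, 1 rose and 1 fell with 75th percentile scaling. Each is 14.3%, against 36.9% higher and 19.6% lower among all genes. After quantile normalization 1 rose (14.3%) and 3 fell (42.9%), against 23.1% and 22.3% of all genes. Gla, which encodes α-galactosidase A, the enzyme missing in Fabry disease, had the largest rise of the 24 tested enzymes and cofactors under both scalings. It gave 1.55, 1.83 and 2.12 in the control samples and 2.82, 3.12 and 3.12 in the overexpression samples. Every overexpression value was above every control value, and the log2 fold change was 1.19 (SE 0.17, adjusted p = 0.0013 in limma), 2.28-fold, and 0.88 (SE 0.17, adjusted p = 0.0059 in limma) after quantile normalization. It was 1.28 on slide 1 and 1.00 on slide 2. Naglu, which encodes the α-N-acetylglucosaminidase of heparan sulphate breakdown, fell. It gave 1.53, 1.26 and 1.28 in the control samples and 0.47, 0.64 and 0.39 in the overexpression samples, again without overlap. Its log2 fold change was −0.86 (SE 0.14, adjusted p = 0.0018 in limma), and −0.95 (SE 0.12, adjusted p = 0.0012 in limma) after quantile normalization. Both calls held under all 19 alternatives tried. The 250 bases before the transcription start of both genes are shown because both hold the motif that the TFEB family binds, 2 times in Gla and 1 time in Naglu, while the RNA levels moved in opposite directions. Capitals mark the motif and the flanking bases that extend it.
Gla (GRCm38.p6, chrX:134601006-134601255, − strand): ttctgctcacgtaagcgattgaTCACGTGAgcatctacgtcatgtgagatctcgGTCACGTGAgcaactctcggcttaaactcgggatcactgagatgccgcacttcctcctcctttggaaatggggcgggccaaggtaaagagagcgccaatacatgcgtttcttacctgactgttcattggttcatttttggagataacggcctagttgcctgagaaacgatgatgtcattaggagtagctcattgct
Naglu (GRCm38.p6, chr11:101069844-101070093, + strand): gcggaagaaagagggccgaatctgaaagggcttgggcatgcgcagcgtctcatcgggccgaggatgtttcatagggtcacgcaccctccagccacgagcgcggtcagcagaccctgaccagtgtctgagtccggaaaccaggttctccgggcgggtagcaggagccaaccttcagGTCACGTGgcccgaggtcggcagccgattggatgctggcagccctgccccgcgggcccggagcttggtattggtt
The stretch before Gla was 48.8% G and C and that before Naglu 64.4%. The other 5 glycosidases, Gaa, Glb1, Hexa, Man2b1 and Neu1, had log2 fold changes between −0.21 and 0.22 and did not pass the test with 75th percentile scaling. After quantile normalization Glb1, the lysosomal β-galactosidase gene, had a log2 fold change of −0.51 (adjusted p = 0.0056 in limma) and Gaa, the acid α-glucosidase gene, −0.35 (adjusted p = 0.037 in limma).

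Of 6 genes for lipid enzymes and cofactors, 2 rose and 1 fell with 75th percentile scaling, and none rose and 2 fell with quantile normalization. The first counts are 33.3% and 16.7%, against 36.9% and 19.6% of all genes. With quantile normalization 33.3% fell, against 22.3% of all genes, and none rose, against 23.1%. Ppt1, which encodes the palmitoyl-protein thioesterase that is lost in a childhood neuronal ceroid lipofuscinosis, fell. It gave 2.58, 2.42 and 2.81 in the control samples and 1.94, 1.94 and 2.23 in the overexpression samples. The groups did not overlap, and the log2 fold change was −0.56 (SE 0.15, adjusted p = 0.014 in limma), and −0.87 (SE 0.15, adjusted p = 0.0037 in limma) after quantile normalization. Without overexpression replicate 1 it was −0.52 (adjusted p = 0.056 in limma). Psap, the precursor of the saposins that present glycolipids to hydrolases, gave 3.18, 2.95 and 2.97 in the control samples and 3.74, 3.85 and 3.66 in the overexpression samples. Grn, the progranulin gene, gave 5.24, 5.33 and 5.32 in the control samples and 5.73, 6.00 and 5.77 in the overexpression samples. Both genes were higher in all 3 overexpression samples, with log2 fold changes of 0.72 (adjusted p = 0.0028) and 0.54 (adjusted p = 0.0085) in limma. After quantile normalization these were 0.23 and −0.10, and neither passed the test. Lipa, the acid lipase gene, had −0.14 and was called only after quantile normalization, with −0.52 (adjusted p = 0.0071 in limma), while the acid ceramidase gene Asah1 (0.22) and the acid sphingomyelinase gene Smpd1 (−0.13) were called under neither scaling.

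Of the 20 V-ATPase genes tested, 14 rose and 1 fell with 75th percentile scaling. The share called higher was 70.0% against 36.9% of all genes, and the median log2 fold change was 0.33 above that of all genes. With quantile normalization, 4 rose and 1 fell, against 23.1% and 22.3% of all genes, and the median was 0.06 above that of all genes. The 5 genes called under both scalings were Atp6v1b1, Atp6v1g2, Atp6v0e2 and Atp6ap1l, which rose, and Atp6v0a2, which fell. The 14 calls of higher levels became 9 without control replicate 2.

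In the V1 sector, 7 of 10 tested genes rose with 75th percentile scaling and none fell, against 36.9% and 19.6% of all genes. With quantile normalization 2 of the 10 rose and none fell, against 23.1% and 22.3% of all genes. The share called higher was thus above that of all genes only with 75th percentile scaling. Atp6v1b1 encodes the B subunit isoform best known from the kidney and inner ear. It gave −2.82, −2.64 and −2.41 in the control samples and −1.61, −1.17 and −1.20 in the overexpression samples. The overexpression samples were all higher, with a log2 fold change of 1.30 (SE 0.17, adjusted p = 0.00082 in limma), 2.46-fold, and 1.28 after quantile normalization. Atp6v1g2, the G subunit isoform best known from neurons, gave −0.77, −0.82 and −1.25 in the control samples and −0.03, 0.43 and −0.40 in the overexpression samples. The spread was wider here but the groups did not overlap, with a log2 fold change of 0.95 (SE 0.23, adjusted p = 0.0088 in limma), and 0.96 after quantile normalization. Both isoform genes kept their call under all 19 alternatives. However, the dimmer probe of Atp6v1g2 did not pass the test under either scaling. Its log2 fold change was 0.46 (adjusted p = 0.082 in limma), and 0.36 (adjusted p = 0.17 in limma) after quantile normalization. The subunit genes Atp6v1a (0.55), Atp6v1b2 (0.50), Atp6v1e1 (0.42), Atp6v1f (0.57) and Atp6v1g1 (0.63) rose with 75th percentile scaling, but had log2 fold changes of −0.08 to 0.30 and no call after quantile normalization. The call of Atp6v1b2 was also lost without any 1 array other than control replicate 1 and overexpression replicate 3 (adjusted p between 0.076 and 0.12 in limma), and that of Atp6v1e1 without any other than overexpression replicate 3 (0.064 to 0.14). Atp6v1d (−0.20), Atp6v1e2 (0.60, adjusted p = 0.069 in limma) and Atp6v1h (0.12) did not pass the test.

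In the V0 sector, 4 of 7 tested genes rose (57.1%) and 1 fell (14.3%) with 75th percentile scaling, against 36.9% and 19.6% of all genes. With quantile normalization 1 rose and 1 fell, each 14.3%, against 23.1% and 22.3% of all genes. Atp6v0a2, one of the isoforms of the a subunit that direct the pump to different membranes and known for its place in the Golgi and endosomes, had the largest fall of the gene group. It gave −0.67, −0.78 and −0.78 in the control samples and −2.32, −2.35 and −1.90 in the overexpression samples. The control samples were all more than 1 log2 unit higher, and the log2 fold change was −1.45 (SE 0.15, adjusted p = 0.00033 in limma) and −1.44 after quantile normalization. Its isoform Atp6v0a1 had −0.15 and did not pass the test. Atp6v0e2, an e subunit isoform, was dim, at −4.19, −4.30 and −3.85 in the control samples and −3.10, −2.70 and −3.07 in the overexpression samples. It rose without overlap, with a log2 fold change of 1.16 (SE 0.17, adjusted p = 0.0013 in limma), of 1.05 after quantile normalization, and of 0.58 with both normexp background correction and quantile normalization. Atp6v0b, the c'' subunit gene of the proton-carrying ring, gave 3.57, 3.40 and 3.30 in the control samples and 4.23, 4.30 and 4.04 in the overexpression samples. It was higher in every overexpression sample, but its log2 fold change of 0.77 (adjusted p = 0.0027 in limma) became 0.23 (adjusted p = 0.19 in limma) after quantile normalization. Atp6v0c, the other ring subunit gene, and Atp6v0d1 rose by 0.58 and 0.51 on the log2 scale with 75th percentile scaling and had 0.09 and −0.01 after quantile normalization, while Atp6v0d2, the d isoform best known from osteoclasts, had 0.28 and was not called. The call of Atp6v0c was lost without any 1 array other than overexpression replicate 3 (adjusted p between 0.051 and 0.11 in limma), and that of Atp6v0d1 without control replicate 2 (0.053) or 3 (0.054).

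All 3 accessory genes rose with 75th percentile scaling, against 36.9% of all genes. With quantile normalization 1 rose (33.3%, against 23.1% of all genes). That gene was Atp6ap1l, a relative of Atp6ap1, which gave −4.90, −5.14 and −4.59 in the control samples and −3.90, −3.43 and −3.59 in the overexpression samples. The groups did not overlap, and the log2 fold change was 1.24 (SE 0.18, adjusted p = 0.0014 in limma), 1.09 after quantile normalization, and 0.54 with normexp correction as well. Atp6ap1, which takes part in assembling the V0 sector, gave 1.78, 1.55 and 1.32 in the control samples and 2.08, 2.42 and 2.03 in the overexpression samples. The groups were apart, with a log2 fold change of 0.63 (SE 0.17, adjusted p = 0.014 in limma) that was 0.41 (adjusted p = 0.06 in limma) after quantile normalization. Atp6ap2, the prorenin receptor, had 0.54 (adjusted p = 0.045 in limma) with groups that overlapped, and 0.43 (adjusted p = 0.12 in limma) after quantile normalization. The call of Atp6ap2 was lost without any 1 array other than control replicate 3 and overexpression replicate 2 (adjusted p between 0.098 and 0.16 in limma).

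**Figure D4:**
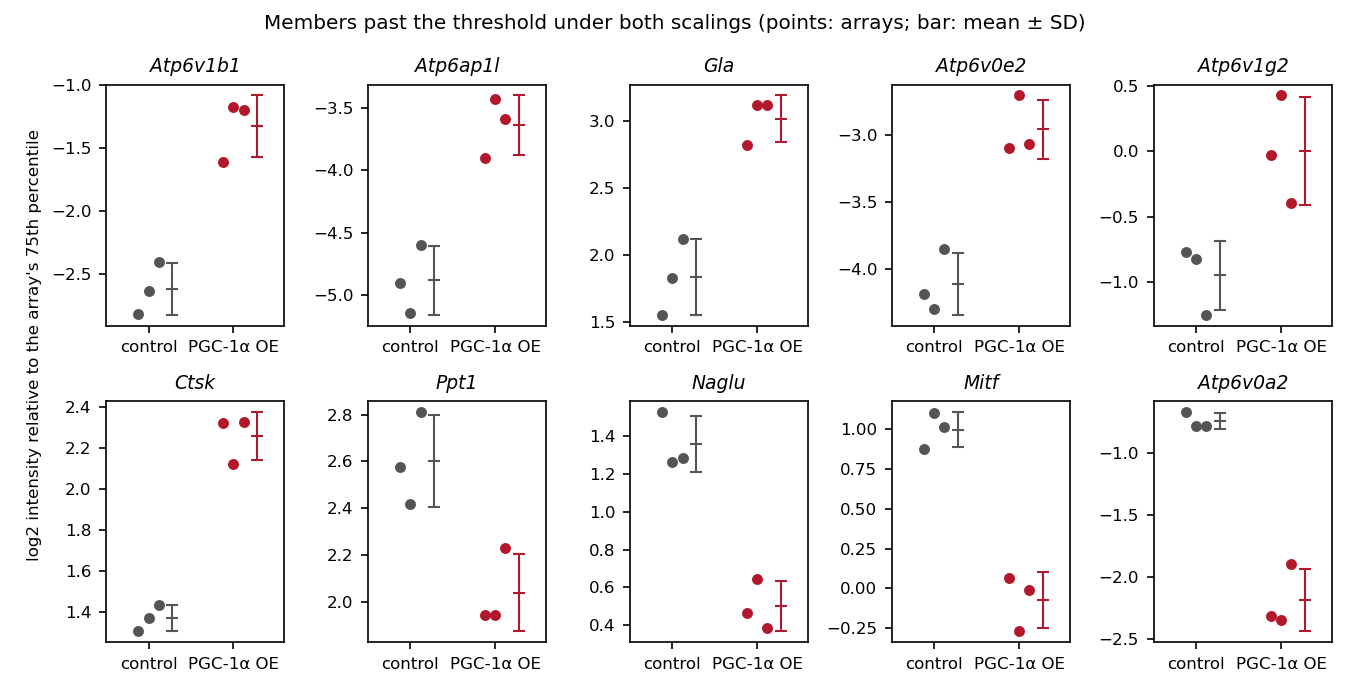
Log2 intensity relative to the 75th percentile of the array (vertical axes, a separate scale for each gene) in the 3 control (grey) and 3 overexpression (red; OE, overexpression) samples for the 10 genes called in the same direction under both scalings. Points are arrays and the bars beside them the mean ± SD, and in none of the 10 do the groups overlap. The 10 genes were chosen by their calls on these same arrays. Among all genes tested, the groups did not overlap for 65.5%.

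Other genes of the lysosome were taken from 6 lists, with 131 of 140 genes tested. In all, 35 rose and 26 fell with 75th percentile scaling, and 11 rose and 36 fell with quantile normalization. These are 26.7% and 19.8% with the first scaling, against 36.9% and 19.6% of all genes, and 8.40% and 27.5% with the second, against 23.1% and 22.3%. The counts of the single lists below are to be read against the same shares of all genes. Of 30 other lysosomal enzymes 12 rose and 2 fell, against 3 and 3 with quantile normalization. The largest rises were those of the nuclease gene Dnase2a (log2 fold change 0.82, and −0.12 at another probe), the iduronidase gene Idua (0.77) and Epdr1 (0.70), which had 0.39, 0.14 and 0.52 and no call after quantile normalization. The 3 genes called higher under both scalings, named after their values were seen, were Ctsw, Acp5 and Arsb. Their log2 fold changes were 0.67, 0.66 and 0.52, and 0.61, 0.35 and 0.40 after quantile normalization. The 2 that fell under the first scaling, of which the second is named after its values were seen, were the hyaluronidase gene Hyal2 (log2 fold change −1.04) and Hgsnat (−0.54), whose product acetylates heparan sulphate, and these had −1.03 and −0.57 after quantile normalization. Of 37 other membrane proteins and transporters, 6 rose and 10 fell with the first scaling, and 1 and 13 with the second. The largest falls were those of the nucleoside transporter gene Slc29a3 (−1.58, adjusted p = 0.00016 in limma), of Ostm1 (−1.09), the partner of the chloride-proton exchanger ClC-7, and of the lysosomal ion channel gene Tmem175 (−0.96), and Tmem106b had 0.88 at the probe used and −0.27 at another. These 3 falls were nearly the same size after quantile normalization, at −1.59, −1.08 and −0.95.

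Of 15 genes of mannose 6-phosphate sorting, which brings hydrolases to the lysosome, 4 rose and none fell with 75th percentile scaling, and 1 rose and 1 fell with quantile normalization. The largest rise was that of the sorting receptor gene Sort1 (0.77), whose other probe gave −0.85. Of 27 regulators and relatives of TFEB and TFE3, 7 rose and 7 fell with 75th percentile scaling, and 4 and 9 with quantile normalization. The folliculin partner gene Fnip2 (−1.92) and the kinase gene Map4k3 (−1.45), both of which act on mTORC1 at the lysosome, fell, and the Rag GTPase gene Rragd (0.73) rose, all under both scalings. Of 14 genes of V-ATPase assembly and regulation, 2 rose and 4 fell with 75th percentile scaling, and 2 and 7 with quantile normalization. Dmxl2 (1.22), which encodes a rabconnectin that promotes assembly of V1 with V0, rose, and Tbc1d24 (−1.77) and the lysosome-positioning gene Borcs5 (−1.24) fell, and these 3 had 1.20, −1.83 and −1.26 after quantile normalization. The other rabconnectin gene, Dmxl1, is counted among those called lower but was not well above background in the overexpression samples. It entered the test through the control samples only. Of 8 cystatins and other inhibitors of lysosomal proteases, 4 rose and 3 fell with 75th percentile scaling, and none rose and 3 fell with quantile normalization. The largest falls were those of Cst6 (−1.43), which was well above background on 4 of the 6 arrays, and Serpinb1a (−0.54), with −1.67 and −0.84 after quantile normalization. Cst6 thus entered the test through 1 group only, so its fall includes values that were not well above background. Cstb, the cystatin B gene, had the largest rise, 0.74, and had 0.18 after quantile normalization.

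**Figure D5:**
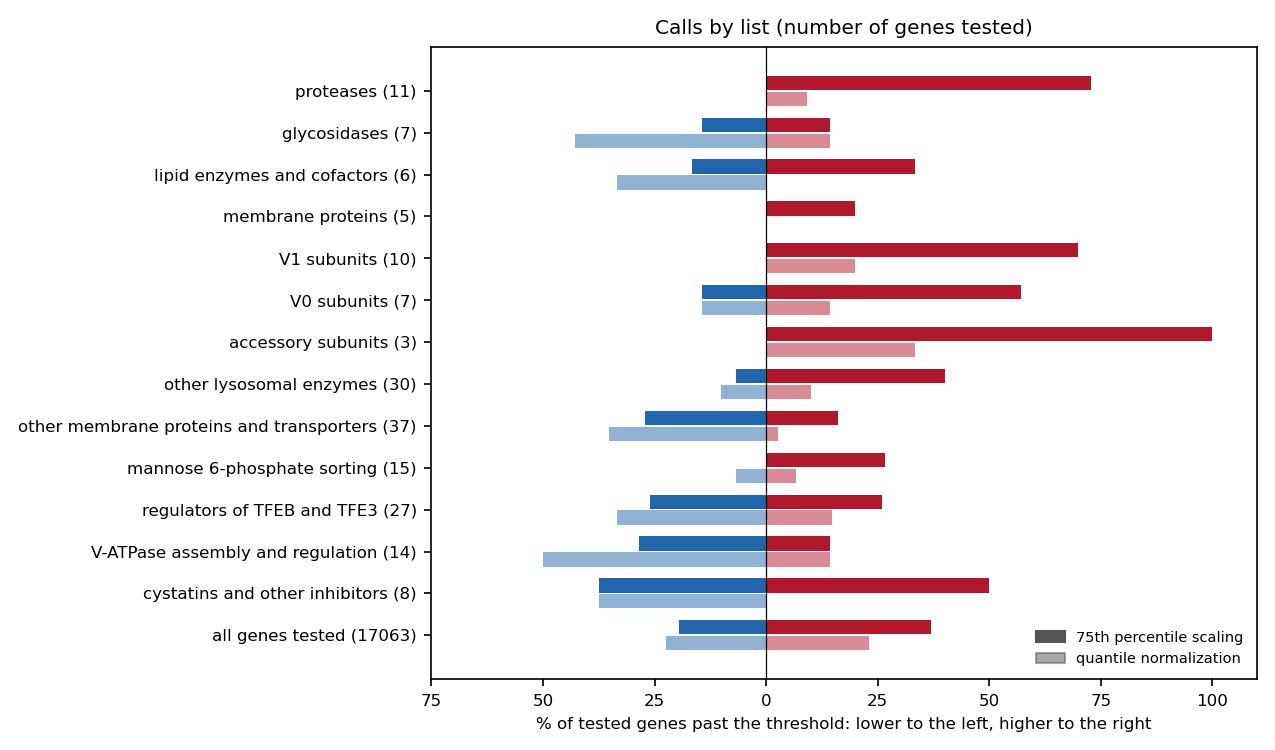
Share of the tested genes of each role or list that passed the threshold (horizontal axis, percent), lower to the left in blue and higher to the right in red, with 75th percentile scaling (dark) and quantile normalization (light), and the number of genes tested in parentheses. All 17063 genes are at the bottom. The shares called higher of the proteases and the V1, V0 and accessory subunits were smaller after quantile normalization, and so was that of all genes.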

How the data were processed

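The authors' scanner software, Agilent Feature Extraction 11.5.1.1 per the file headers, produced background-subtracted, spatially detrended green-channel intensity values for 62976 spots per array, which were deposited with no step to align the arrays. A second deposited table holds the authors' log2 values for some of the probes, normalized in GeneSpring by a step that is not specified. Its columns share nearly the same quantiles and correlate with the log2 intensity of their own array with an r of 0.9988 or more across probes, and their centring is not stated, with medians of 8.29 on all arrays.

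Log2 was taken of the deposited intensity, the 75th percentile over the 59305 spots other than controls was subtracted, spots with an outlier flag (149 to 1590 on an array) were dropped, and replicate spots of a probe were averaged. Of 56605 probes, 33767 (59.7%) were matched through their RefSeq accession to 23462 genes of the mouse assembly GRCm38.p6. A probe entered the test when the scanner software marked it well above background throughout at least 1 group and each group had at least 2 values, and the brightest stood for its gene. Of the 52 members tested, 5 lacked a value on an array.

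Groups came from the sample labels, and slides held both groups (replicates 1 and 2 on one, 3 on the other). The comparison used limma 3.58.1 (lmFit, eBayes) under R 4.3.3, and the p-values are two-sided and adjusted by the method of Benjamini and Hochberg. Values of single probes that do not stand for a gene came from the same fit over all probes tested. With 3 arrays against 3, an exact two-sided permutation test cannot go below 0.1, and precision is limited by the number of arrays. In simulated data for the 17063 genes, 200 genes were given a change. The limma test recovered 59% of genes with a simulated log2 change of 1 and 93% of those with 2, with 2.56% of calls false. With so few genes changed, the simulation does not test the choice of scaling, which moved many calls in the real data. Alternatives were quantile normalization, median scaling, normexp correction (offset 50), no filter or a stricter one on dim signals, averaging of probes, slide and replicate blocks, a variance trend, array weights, the authors' values, leaving out each array, and, chosen after seeing the data, slide 1 alone. Python 3.11.15, numpy 2.4.6, pandas 2.3.3 and matplotlib 3.10.9 were used for tables and plots.

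The members and lists were chosen with earlier results of these data known. Values on every array are given for Tfeb, Tfe3 and Mitf and, in each role, for up to 2 genes with the largest rise and 2 with the largest fall among those called whose groups do not overlap, and up to 4 genes with the largest changes are named from each list of other lysosomal genes. Hgsnat, Ctsw, Acp5 and Arsb were named in addition, after their values were seen. The markers of cell types served only to check the label.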

Additional observations from a re-analysis of the deposited data

How the results depend on the processing

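With 75th percentile scaling, 11 enzyme and cofactor genes were called higher and 2 lower, 14 V-ATPase genes higher and 1 lower, 2 membrane protein and transcription factor genes either way, and 61 other lysosomal genes either way, and the medians relative to all genes were 0.02 for the enzymes and 0.33 for the V-ATPase. Quantile normalization gave 2 and 5 enzymes, 4 and 1 V-ATPase genes, 1 membrane protein or transcription factor gene, 47 other genes, and medians of −0.18 and 0.058. The authors' log2 values gave the same counts and medians of −0.19 and 0.058. Normexp with quantile normalization gave 2 and 7 enzymes, 4 and 2 V-ATPase genes, and medians of −0.19 and 0.14. Median scaling left 5 enzymes higher. Without a filter on dim probes, 2 V-ATPase genes were lower, 1 membrane protein or transcription factor gene was called, and the medians were −0.098 and 0.19. Normexp with 75th percentile scaling gave 1 such gene and a median of −0.055 for the enzymes, the mean of probes 1 such gene, array weights a median of 0.073, and slide 1 alone 6 enzymes higher, 1 such gene and a median of −0.041. Leaving out 1 array gave 5 to 10 enzymes higher, 1 to 2 lower, 9 to 14 V-ATPase genes higher and 1 lower, 1 to 2 membrane protein and transcription factor genes, 43 to 57 other genes, and medians of −0.025 to 0.091 for the enzymes and 0.27 to 0.36 for the V-ATPase. The cause of these differences was not tested. Some genes with a flagged spot could not be tested when an array was left out or slide 1 was used alone, which lowers those counts.

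Single genes changed sign as follows. Of these values, those of Cd63, Lgmn and Hexa with normexp and quantile normalization (adjusted p = 0.039, 0.0495 and 0.026 in limma) and that of Ctsl with the mean of probes (0.0077) were called lower, and the others did not pass the test. After quantile normalization the log2 fold change was −0.30 for Cd63, −0.18 for Lamp1, −0.080 for Ctsa, −0.14 for Ctsb, −0.16 for Ctsd, −0.091 for Ctsf, −0.098 for Ctsh, −0.25 for Ctsl, −0.19 for Lgmn, −0.31 for Hexa, −0.29 for Neu1, −0.10 for Grn, −0.082 for Atp6v1b2, −0.096 for Atp6v1h, −0.0074 for Atp6v0d1 and −0.083 for Atp6v0d2. With the authors' values the same 16 genes, in that order, had −0.29, −0.18, −0.11, −0.077, −0.18, −0.086, −0.087, −0.24, −0.19, −0.31, −0.29, −0.15, −0.074, −0.089, −0.0047 and −0.084. With normexp and quantile normalization they had −0.29, −0.24, −0.12, −0.11, −0.18, −0.13, −0.15, −0.32, −0.26, −0.34, −0.25, −0.076, −0.076, −0.12, −0.011 and −0.091, and Scarb2 had 0.12. With the mean of probes Tfe3 had −0.034, Scarb2 0.13, Ctsh −0.080 and Ctsl −0.52, with median scaling Ctsh −0.061 and Neu1 −0.0037, with normexp and 75th percentile scaling Scarb2 0.23 and Ctsh −0.034, with array weights Ctsf −0.017 and Ctsh −0.039, and on slide 1 alone Man2b1 0.033. Leaving out 1 array gave −0.10 to 0.031 for Scarb2, −0.034 to 0.21 for Ctsf, −0.0078 to 0.12 for Ctsh, −0.11 to 0.0067 for Gaa and −0.056 to 0.015 for Man2b1.

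Replicate numbers of the 2 groups did not pair the arrays: the deviations of same-numbered arrays from their group means had correlations of −0.16, 0.07 and 0.60 across genes, and 1 of the 3 pairs correlated best within its number. That pair, number 3, was the only one on slide 2, so number and slide cannot be told apart for it. Control replicates 1 and 2 correlated best with overexpression replicates 2 (0.50) and 1 (0.23). With the replicate block, 11 enzymes were higher and 2 lower, 15 V-ATPase genes higher and 1 lower, 2 membrane protein and transcription factor genes and 64 other genes were called, and the medians were 0.02 and 0.33. Of the 10 genes called under both scalings, 8 kept their direction and call under all 19 alternatives. Mitf lost it with the mean of probes and Ppt1 without overexpression replicate 1. Atp6v0e2 and Atp6ap1l, both dim, had log2 fold changes of 0.84 and 0.86 with normexp and 75th percentile scaling and of 0.58 and 0.54 with normexp and quantile normalization.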
